A study of Mus musculus with 6 samples.

Results

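The 10 genes described here, P2ry12, Tmem119, Cx3cr1, P2ry13, Gpr34, Siglech, Csf1r, Olfml3, Selplg and Fcrls, are a list of transcripts typical of resting (homeostatic) microglia, chosen by name. They are 10 of the 28324 genes in the deposited table, and each had a row and UMIs in every mouse. The cells came from the hippocampus of 10-week-old APP/PS1 mice, which carry the APPswe and PSEN1dE9 transgenes and so express mutant human amyloid precursor protein and presenilin. All mice of both groups carried these transgenes, and no mice without them were profiled in the samples used here. Of 6 mice, 3 received an antisense oligonucleotide (ASO) and 3 received phosphate buffered saline (PBS), so a saline vehicle and not a second oligonucleotide served as control. Dissociated cells were profiled by Drop-Seq, in which single cells are caught in droplets with barcoded beads and each transcript is counted once, near its 3′ end, through a unique molecular identifier (UMI).

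Microglia are the resident macrophages of the brain parenchyma. In the undisturbed brain they survey the tissue with moving processes and express a set of surface receptors and secreted proteins that depends on transforming growth factor beta signalling. Around amyloid deposits, microglia are known to lower many of these genes while they raise lipid-handling, lysosomal and phagocytic genes, a state called disease-associated. The list holds the purinergic receptors P2ry12 and P2ry13, which sense ADP and steer processes towards damage; Cx3cr1, the receptor for the neuronal ligand fractalkine; Csf1r, the tyrosine kinase receptor for the survival factors CSF1 and IL-34; and Gpr34, a receptor for lysophosphatidylserine. Siglech is a sialic acid-binding lectin, Selplg encodes the selectin ligand PSGL-1, and Fcrls is an Fc receptor-like scavenger receptor. Tmem119 is a transmembrane protein widely used to tell microglia from other brain macrophages, and Olfml3 is a secreted protein.

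After removal of 207 called doublets (1.61% of 12823 cells), 12616 cells in 17 deposited classes remained, with 1751 to 2822 cells and 2005768 to 3150332 UMIs per mouse. The class labelled Microglia_Macrophage held 1852 of them, from 201 to 440 per mouse, with class median UMIs of 946 to 1030.5 per cell. Mylip, which encodes IDOL, the protein whose reduction the study's title names, read 354, 375 and 390 CPM (counts per 1000000 UMIs) in the class of PBS mice, against 167, 199 and 175 CPM in that of ASO mice. Other measures also differed between libraries. UMIs of mt-Rnr2 relative to mt-Cytb were 12.9, 7.16 and 16.7 in PBS mice 1 to 3 and 10.9, 4.48 and 15.9 in ASO mice 1 to 3. Taken in order of this ratio, 2 at a time, the mice form 3 pairs of 1 PBS and 1 ASO mouse with the same number, although in relative terms PBS mouse 2 lay about as near to ASO mouse 1 as to ASO mouse 2. The choroid plexus marker list (Ttr, Folr1, Kl) read 51.1 CPM in the class of PBS mouse 3 against 2341 to 7209.5 CPM elsewhere, and 8 cell barcodes occurred in more than 1 mouse, with 1 such cell in the class.

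For 6 of the 10 genes a promoter window from RefSeq (build GRCm38.p6, 250 bases before to 50 bases after the start) was at hand. Of these, 4 are shown because their genes behaved differently in the comparisons that follow: P2ry12 and P2ry13 were among the 3 members with the largest reduction in cells that carried disease-associated transcripts, Cx3cr1 was reduced less, and Fcrls did not pass the test. Each reads 5′ to 3′ on the strand of the gene. Capitals mark GAGGAA and GGAAGT (or their complements on the other strand), overlapping pieces of the core sequence bound by PU.1, the transcription factor that specifies macrophages and microglia; the motifs were chosen after the sequences had been seen.
P2ry12 promoter, chr3:59262936-59263235, minus strand: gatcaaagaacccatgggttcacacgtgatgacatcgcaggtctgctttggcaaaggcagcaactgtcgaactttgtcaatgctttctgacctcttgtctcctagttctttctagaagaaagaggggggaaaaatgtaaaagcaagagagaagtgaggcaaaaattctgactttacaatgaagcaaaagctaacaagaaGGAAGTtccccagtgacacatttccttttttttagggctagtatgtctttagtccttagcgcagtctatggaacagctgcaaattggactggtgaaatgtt
P2ry13 promoter, chr3:59210833-59211132, minus strand: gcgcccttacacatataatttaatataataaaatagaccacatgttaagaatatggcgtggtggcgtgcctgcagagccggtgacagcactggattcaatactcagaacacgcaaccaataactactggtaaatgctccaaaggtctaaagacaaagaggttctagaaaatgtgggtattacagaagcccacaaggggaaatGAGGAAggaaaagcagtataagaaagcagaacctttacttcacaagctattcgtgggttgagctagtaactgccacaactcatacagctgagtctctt
Cx3cr1 promoter, chr9:120068247-120068546, minus strand: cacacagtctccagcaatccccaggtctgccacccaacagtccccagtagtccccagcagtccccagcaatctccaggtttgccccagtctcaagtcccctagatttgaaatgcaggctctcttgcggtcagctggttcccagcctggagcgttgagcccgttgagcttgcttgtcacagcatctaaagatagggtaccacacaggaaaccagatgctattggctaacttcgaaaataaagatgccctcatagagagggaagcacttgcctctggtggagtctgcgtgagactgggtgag
Fcrls promoter, chr3:87263475-87263774, minus strand: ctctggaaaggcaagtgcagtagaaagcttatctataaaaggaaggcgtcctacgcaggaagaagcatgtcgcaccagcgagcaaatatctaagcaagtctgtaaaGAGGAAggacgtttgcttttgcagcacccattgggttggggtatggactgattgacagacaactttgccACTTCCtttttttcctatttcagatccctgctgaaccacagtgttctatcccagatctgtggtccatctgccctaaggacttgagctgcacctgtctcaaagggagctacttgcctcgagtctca
On either strand, GAGGAA occurred in 28.3% and GGAAGT in 23.8% of 32851 RefSeq windows of the same length, and 43.4% held at least 1 of them. Of the 6 members with a window, 4 held one: P2ry12, P2ry13, Fcrls and Siglech. Olfml3 and Cx3cr1 held neither in these 300 bases. Among the genes shown, matches occurred both in P2ry12 and P2ry13 and in Fcrls. They describe letters only.

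In the genome (GENCODE M21, GRCm38), P2ry13 (chr3:59207892-59210882) and P2ry12 (chr3:59216272-59262871) are neighbours on the minus strand of chromosome 3, and both lie inside Med12l, which is read from the plus strand. Fcrls (chr3:87250758-87263738) and Olfml3 (chr3:103722222-103738001) are on the minus strand of the same chromosome. Tmem119 (chr5:113793729-113800516) and Selplg (chr5:113818536-113832644) are neighbours on the minus strand of chromosome 5. Cx3cr1 (chr9:119901616-120069879, minus strand), Siglech (chr7:55768178-55778925, plus strand) and Gpr34 (chrX:13632089-13640858, plus strand, within Cask on the minus strand) are each alone among the members on their chromosomes. Csf1r lies on the plus strand of chromosome 18 and overlaps the end of Hmgxb3 on the minus strand. The annotated span of Cx3cr1 also overlaps other genes, named below where its levels outside the class are given. Whether the authors' counting used the strand is not given in the sources used here, so reads of such overlapping partners cannot be told apart with certainty. Their levels in the class were lower than those of the members: 103 CPM for Med12l, 272 CPM for Cask and 38.3 CPM for Hmgxb3.

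The list marked the Microglia_Macrophage class closely. The 10 genes together had 22736 UMIs, of which 97.5% lay in that class although it held 1852 of 12616 cells. Their summed level was 11178 CPM in the class and 46.7 CPM in all other classes together, a 239-fold difference. By gene, the share of UMIs in the class ran from 95.3% for Cx3cr1 to 98.6% for Selplg and Gpr34. The classes were defined by the authors from the same cells, so the values are a description with no test. As a check with a gene outside the list, C1qa, a complement gene of microglia, was seen in 83.9% of class cells and in 0.706% of other cells, and 98.3% of its UMIs lay in the class.

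**Figure D1:**
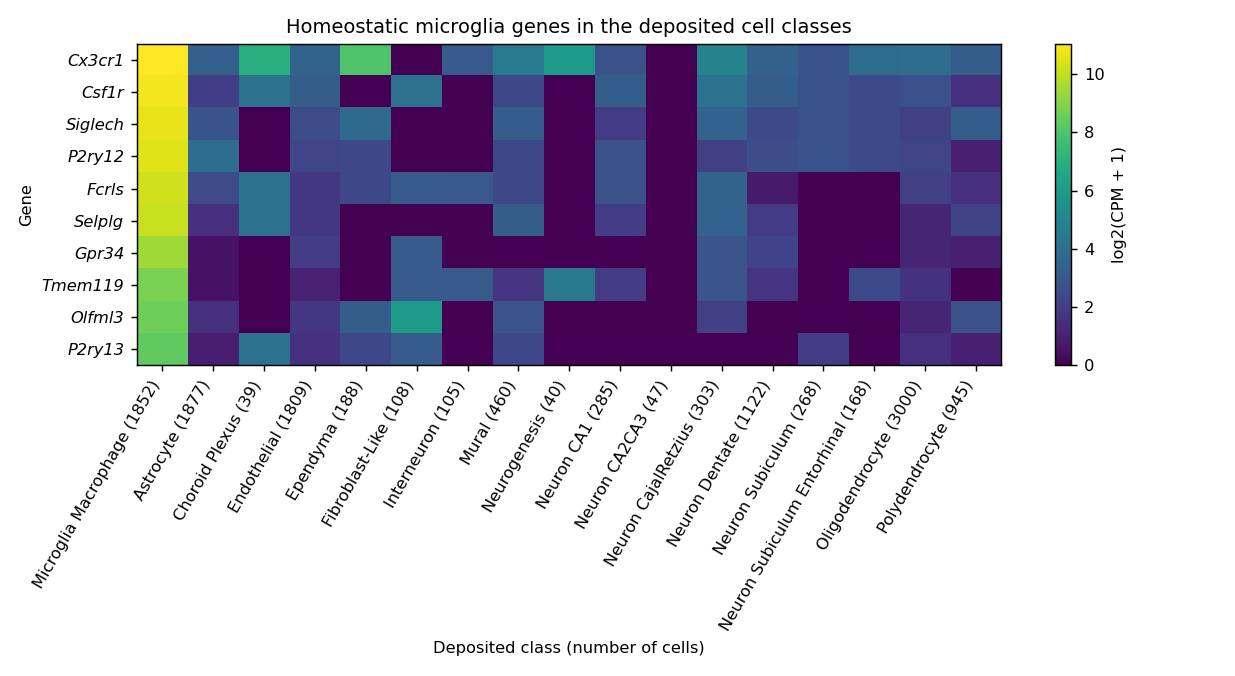
Level of each of the 10 homeostatic genes (rows) in the 17 deposited classes (columns, cell numbers in parentheses), as log2(CPM + 1) from counts summed over 6 mice. Every row is brightest in Microglia_Macrophage, and the brightest cell elsewhere is Cx3cr1 in Ependyma at 251 CPM.

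Within the class the fractalkine and CSF1 receptors had the highest mean levels of the 10, and the ADP receptor P2ry13 the lowest. Because UMIs were counted at transcript ends, CPM values are compared between genes without division by length. Cx3cr1 led with a mean of 2078 ± 290 CPM (SD, n = 6 mice), followed by Csf1r at 1876 CPM, Siglech at 1610 CPM, P2ry12 at 1470 CPM, Fcrls at 1201 CPM and Selplg at 1113 CPM. A gap separated these from Gpr34 at 710 CPM, Tmem119 at 457 CPM, Olfml3 at 395 CPM and P2ry13 at 320 CPM. Selplg and Gpr34 were the only neighbours in this order whose ranges over mice did not overlap. Cx3cr1 exceeded Csf1r in 4 of 6 mice and Fcrls exceeded Selplg in 4 of 6, so those neighbours did not differ beyond their spread, while Csf1r exceeded Siglech, P2ry12 exceeded Fcrls, and Gpr34 exceeded Tmem119 in 6 of 6 mice.

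Detection per cell followed the level. Cx3cr1 was seen in 83.3% of class cells, Csf1r in 80.4%, Siglech in 72.9% and P2ry12 in 66.9%, whereas Tmem119 was seen in 34.3%, Olfml3 in 31.5% and P2ry13 in 26.8%. With every cell thinned to 500 UMIs, Cx3cr1 was seen in 62.2%, Tmem119 in 20.3% and P2ry13 in 15.9%. A class cell held a median of 6 of the 10 members (4 after thinning), and 0.972% of class cells held none. In the other classes, with a median depth of 1068 UMIs against 986 in the class, 95.2% of cells held none, and single members were seen in 0.167% (P2ry13) to 1.76% (Cx3cr1) of cells. Absence of a UMI of a low member such as P2ry13 or Tmem119 in a class cell therefore says little at this depth.

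Outside the class, the level of Cx3cr1 was apart from those of most other members. Cx3cr1 had 59 UMIs in the 188 cells of the class Ependyma, the ciliated cells that line the ventricles, which came to 251 CPM against 2097 CPM in the microglia class, and to 27.7% of ependymal cells. It was present in all 6 mice, from 90.0 to 348 CPM. The other 9 members had 0 to 3 UMIs each there, with Tmem119, Gpr34, Csf1r and Selplg at 0 (a count of 0 allows up to 12.8 CPM), and C1qa and C1qb were also at 0. The median depth was 1189 UMIs per cell in Ependyma. In GENCODE M21 a second, weakly supported transcript of Cx3cr1 extends from the usual Cx3cr1 locus to chr9:119901616 and spans Ttc21a on the opposite strand, a gene of cilia with 35 UMIs (149 CPM) in Ependyma and 0 in the microglia class. On its own strand the transcript also overlaps Csrnp1, with 15 UMIs (63.9 CPM) in Ependyma and 83.7 CPM in the microglia class. Gorasp1 and Xirp1 on that strand had 3 and 1 UMIs in Ependyma, and Wdr48 on the opposite strand had 6. Whether the ependymal Cx3cr1 UMIs come from Cx3cr1 or from its annotated neighbours was not tested, since no read positions are given. Cx3cr1 also had 7 of the 11 member UMIs in the 39 Choroid_Plexus cells (119 CPM, 15.4% of cells, 0 to 290 CPM over mice).

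Olfml3, the secreted member, showed a second departure in the 108 cells of the class Fibroblast-Like, with 8 UMIs in 7.41% of cells (63.4 CPM, 16.3% of its microglia level). It ranged from 0 to 223 CPM over mice. The other members had 0 to 2 UMIs each in these cells, and C1qa and C1qb had 0.

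The non-member genes whose levels over the 17 classes were most like the summed members were Hvcn1 (Pearson r = 0.92), Ntpcr (0.91), Ctsz (0.88), Snx5 (0.85), Itgb5 (0.84), Ccl4 (0.84), Ptpn1 (0.84) and Rplp1 (0.84), among 10428 genes with at least 200 UMIs. These r values are descriptions over 17 classes that share libraries, and members themselves ranged from 0.67 (Tmem119) to 0.84 (Cx3cr1). Only Ccl4, a chemokine, had a class share (98.6% of UMIs) like that of the members. Hvcn1, Ntpcr and Snx5 had 55.8%, 60.7% and 46.2% of their UMIs in the class. Ptpn1 and the ribosomal gene Rplp1 had only 35.8% and 37.5%. In Ependyma, Cx3cr1 gave 59 of the 67 member UMIs, so the summed level there is mostly that gene.

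RNA for ligands of the member receptors was highest in several classes. Cx3cl1, the ligand of CX3CR1, was highest in the neuron classes CA1 (391 CPM) and Subiculum (338 CPM). Il34 was highest in Mural cells (128 CPM), while Csf1, the other ligand of CSF1R, was highest in the microglia class itself (331 CPM) and next in Oligodendrocyte (111 CPM). Tgfb1 and Nrros, whose product helps activate it on microglia, were highest in the microglia class at 194 and 235 CPM. Tgfb3 was highest in Mural cells (161 CPM). Pla1a, an enzyme that makes the GPR34 ligand, was also highest in Mural cells (81.4 CPM), and Selp, a selectin bound by PSGL-1, reached at most 2.25 CPM.

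Between ASO and PBS mice, no member passed the test in the microglia class. Raw counts were summed per mouse and fitted with edgeR's quasi-likelihood test over 5473 genes, of which 2 (0.0365%) passed a Benjamini-Hochberg adjusted p of 0.05: Mylip, lower, and the lysozyme gene Lyz2, higher. Of the 10 members 0 passed, 1 (Tmem119) had an unadjusted p under 0.05, and DESeq2 and limma voom each gave 0 as well, with 1 unadjusted. The fitted values of 8 members lay under 0, with a median log2 fold change (ASO minus PBS) of -0.12 over the list and -0.01 over all genes tested, of which 51.3% lay under 0. The labels do not say how the mice were bred or housed, so p-values measure the spread between these 6 animals.

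Tmem119 had the largest fitted difference of the 10. In PBS mice its normalised level (TMM-scaled CPM over tested genes) was 653, 526 and 586, against 419, 480 and 406 in ASO mice. All 3 ASO mice lay below all 3 PBS mice. The fitted log2 difference was -0.45 (SE 0.161, 95% interval -0.77 to -0.12), with an edgeR adjusted p of 0.767. Among all genes tested, 5.57% had every ASO mouse below every PBS mouse and 5.52% had an unadjusted p under 0.05. Within the 3 pairs of mice formed by mitochondrial ratio, the log2 differences were -0.64 for mice 1, -0.13 for mice 2 and -0.53 for mice 3. Since the groups did not overlap, any pairing gives negative differences, so these signs add nothing to the lack of overlap.

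Selplg was the other member without overlap. PBS mice had 1273, 1315 and 1393 normalised CPM, and ASO mice 1119, 1229 and 1155. Its fitted difference was -0.19 (SE 0.151, edgeR adjusted p = 0.917), and the within-pair differences were -0.19 for mice 1, -0.10 for mice 2 and -0.27 for mice 3. The shared sign of these within-pair differences again follows from the lack of overlap under any pairing. The other members overlapped between groups.

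The purinergic receptors and the remaining receptors showed no separation. For P2ry12, PBS mice had 1541, 1707 and 1972 normalised CPM and ASO mice 1509, 1833 and 1320, with a fitted log2 difference of -0.17 (SE 0.161). For P2ry13 the values were 305, 385 and 419 against 371, 394 and 277. ASO mouse 3 was the lowest mouse for both, and also for Cx3cr1 at 1747 CPM, where the other 5 mice lay between 2289 and 2586. That mouse was also the lowest for Tmem119 (406 normalised CPM), Gpr34 (662), Siglech (1498) and Csf1r (1912), but not for Selplg, Olfml3 or Fcrls. Csf1r spanned 2040 to 2230 (PBS) and 1912 to 2292 (ASO), and Gpr34 811 to 859 and 662 to 900. The log2 fold changes were -0.10 for P2ry13, -0.15 for Cx3cr1, -0.15 for Gpr34 and -0.08 for Csf1r, and their 95% confidence intervals all included 0.

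Siglech, Olfml3 and Fcrls had the smallest or opposite fitted values. Siglech had a log2 fold change of -0.05 (95% interval -0.37 to 0.27). Olfml3 was fitted at 0.08 (-0.25 to 0.42). Fcrls was at 1160, 1433 and 1205 (PBS) against 1500, 1488 and 1295 (ASO), fitted at 0.17 (-0.14 to 0.49). Intervals of this width do not show that the groups were alike.

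**Figure D2:**
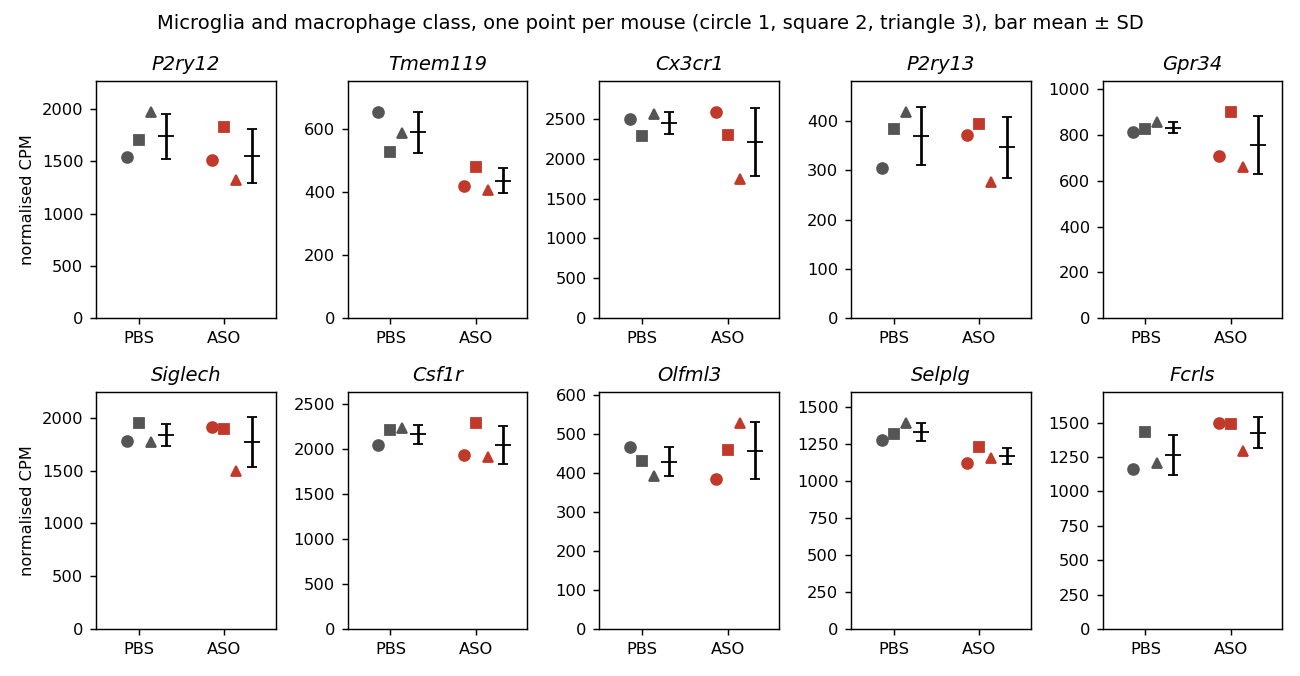
Normalised CPM of each homeostatic gene in the Microglia_Macrophage class, 1 point per mouse (grey PBS, red ASO) with the mean and SD of 3 mice beside each group. Tmem119 and Selplg are the panels in which all ASO points lie below all PBS points, and no panel passed the test over all genes.

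The share of cells with a UMI was compared as well. After thinning to 500 UMIs, Tmem119 was seen in 22.5% ± 2.78 of class cells of PBS mice, against 18.6% ± 2.49 for ASO mice (SD, n = 3 each), and unthinned in 38.8% ± 3.33 and 31.0% ± 3.90. P2ry12 was seen in 51.0% ± 4.13 and 46.3% ± 6.26 after thinning, and Siglech in 52.2% ± 3.89 and 52.5% ± 4.68. With 3 mice against 3, an exact permutation test cannot go below p = 0.1, so none was run on these shares. Summed over the members, PBS mice had 11502, 11621 and 11857 CPM against 10991, 11923 and 9493 CPM for ASO mice, and ASO mouse 2 was the highest of all 6.

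Related gene lists gave few calls. Of 38 other homeostatic and identity genes tested 0 passed, with 26 fitted lower and a median log2 fold change of -0.12, and those with the largest values were Upk1b at -0.79, Crybb1 at -0.65, the TGF-beta mediator Smad3 at -0.62 and the fructose transporter Slc2a5 at -0.41. Of 9 signalling partners 0 passed, and the largest value was that of Plcg2, a phospholipase downstream of TREM2 and CSF1R, at -0.68 (adjusted p = 0.76). Of 6 purine pathway genes tested 0 passed, led by Kcnk13 at 0.46. Of 23 disease-associated genes tested 1 passed (Lyz2 at 0.89, edgeR adjusted p = 0.0261) and 21 were fitted higher, with a median of 0.31; Apoe was at 0.81 (adjusted p = 0.121). Lyz2 did not pass in 8 of 18 alternatives (adjusted p 0.00047 to 0.786 over all 18); it was at 0.54 without macrophage-marker cells, and the call was also lost without oligodendrocyte-marker cells, with cells chosen by non-member genes, with a term for the mouse pairs, and without PBS mouse 1, PBS mouse 3, ASO mouse 1 or ASO mouse 3. Immediate early genes, which also respond to tissue dissociation, gave 0 passing of 19 tested and 16 fitted lower, with Fosb at -0.55. Of 3 ligand genes tested in the class 0 passed, with Csf1 at 0.19.

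The makeup of the class differed between mice as well. The share of cells with a UMI of a disease-associated marker (defined in the next comparison) was taken among class cells without a macrophage marker. It was 29.8%, 28.5% and 22.3% for PBS mice, against 40.8%, 23.4% and 36.8% for ASO mice. Macrophage markers (9 genes) were seen in 12.5% to 23.5% of class cells (PBS) and 16.4% to 22.2% (ASO), and their summed level was 290 to 908 CPM and 472 to 935 CPM, with none of the 9 at 0 and 7 of the 8 tested fitted higher in ASO mice. The 6 oligodendrocyte markers summed to 923 to 1251 CPM and 1362 to 1456 CPM, with 3 of 4 tested fitted higher and none at 0. The groups did not overlap for that sum, and 5.46% of single genes tested had every ASO mouse over every PBS mouse. Of the macrophage and oligodendrocyte markers tested 0 passed, and 51.3% of all genes tested were fitted lower. Monocyte and lymphocyte lists (5 genes each, 1 of each at 0) summed to 58.2 CPM at most. The part of these in the fitted differences was not tested. With cells that held a disease-associated marker UMI left out, Tmem119 was at -0.34 and Selplg at -0.17; with macrophage-marker cells left out they were at -0.34 and -0.17; with oligodendrocyte-marker cells left out they were at -0.58 and -0.14. None of these passed. Without PBS mouse 1, Tmem119 was at -0.36.

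Summed over all cells, which mixes level per cell and number of cells, 9 of 10 members were fitted lower (49.5% of all genes were) and 0 passed among 14002 genes, of which 1 (0.00714%) passed. For Tmem119 edgeR gave -0.56 (SE 0.168, adjusted p = 0.999), and it was the 1 member with an unadjusted p under 0.05, as 4.07% of genes had. Tmem119 and Gpr34 (-0.27) had all ASO mice below all PBS mice, as 4.61% of genes did. The class made up 14.4% to 16.7% of cells for PBS mice and 15.6%, 9.58% and 17.0% for ASO mice, so fewer cells of the class and less RNA per cell cannot be told apart in these sums. Of 9 ligand genes 8 were tested in the same sums and 0 passed, with Cx3cl1 at 0.25, Il34 at -0.32 and Tgfb1 at -0.22.

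The clearest difference among microglia lay between cells with and without disease-associated transcripts. Cells with a macrophage marker UMI were set aside, and the remaining 1502 cells were split into 468 with and 1034 without a UMI of Cst7, Lpl, Itgax, Spp1 or Gpnmb, which are not members. Sums per mouse were compared with the mouse as a block. Of 10 members 8 were lower in cells with a marker and passed, against 13.8% of the 3556 genes tested that passed lower and 30.7% that passed in either direction. By normalised level, 7 members were lower in each of 6 mice, against 13.4% of genes. The summed members read 7551 ± 253 CPM with and 13682 ± 1039 CPM without a marker (SD, n = 6 mice), and the highest mouse with a marker (7828 CPM) lay below the lowest without (11721 CPM). Cells with a marker were deeper, with median UMIs of 1188 against 905, and were split on transcripts they contained; 8 members also passed when cells were thinned to 500 UMIs for both the markers and the sums (15.6% of genes passed lower there).

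Tmem119 showed the largest reduction. With a marker its level was 174, 171 and 212 CPM (PBS) and 154, 157 and 187 CPM (ASO), against 720, 677 and 657 CPM and 613, 634 and 452 CPM without. The 2 sets of values did not overlap. Its fitted log2 difference was -1.70 (SE 0.162), a 3.24-fold lower level, and the edgeR adjusted p was 6.77e-14.

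The ADP receptors followed. With a marker P2ry12 was at 659, 646 and 707 CPM (PBS) and 583, 898 and 562 CPM (ASO), and without at 1752, 2025, 2151, 2002, 2181 and 1732 CPM in the same order. The highest level with a marker was below the lowest without. The fitted log2 difference of -1.47 (SE 0.107, edgeR adjusted p = 6.3e-19) is a 2.77-fold reduction. P2ry13, its neighbour on chromosome 3, read 122 to 200 CPM with and 332 to 492 CPM without a marker, a fitted difference of -1.33 (SE 0.176, edgeR adjusted p = 3.53e-09) that rests on 91 UMIs in the marked cells.

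The fractalkine and CSF1 receptors were reduced less. Cx3cr1 read 1109 to 1490 CPM with and 2050 to 3028 CPM without a marker (log2 fold change -0.89, SE 0.0949, edgeR adjusted p = 4.33e-12). Csf1r read 1132 to 1496 CPM with and 2064 to 2459 CPM without (-0.68, SE 0.098). For both, the ranges of the 6 mice did not overlap. Selplg was at -0.85 (SE 0.116), with a range of 583 to 973 CPM with and 1174 to 1523 CPM without a marker; ASO mouse 3 had the smallest difference, from 1174 to 973 CPM. Gpr34 was at -0.67 (SE 0.127), and its ranges of 353 to 683 CPM and 700 to 983 CPM did not overlap either.

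Siglech was the least reduced of those that passed, at -0.47 (SE 0.106, edgeR adjusted p = 0.000243). Its ratio of the level with to the level without a marker ran from 0.404 in ASO mouse 2 to 0.981 in PBS mouse 1, the widest spread over mice among the 8, and its ranges overlapped (853 to 1677 CPM with and 1562 to 2150 CPM without).

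Olfml3 and Fcrls did not pass. Olfml3 was at -0.19 (95% interval -0.49 to 0.11, edgeR adjusted p = 0.362), lower in 5 of 6 mice. With a marker Fcrls was at 870, 1122 and 954 CPM (PBS) and 1171, 1459 and 1226 CPM (ASO), and without at 1122, 1361, 1096, 1435, 1277 and 1131 CPM in the same order. Its log2 fold change was -0.04 (95% interval -0.25 to 0.17, edgeR adjusted p = 0.829), an interval that does not reach the fitted value of any member that passed. It was lower with a marker in all 3 PBS mice and in ASO mouse 1, and higher in ASO mice 2 and 3. In each of the 6 mice, the ratio with to without a marker was lower for P2ry12, Tmem119, P2ry13, Cx3cr1, Csf1r, Gpr34 and Selplg than for Fcrls, and for Siglech in 5 of 6.

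**Figure D3:**
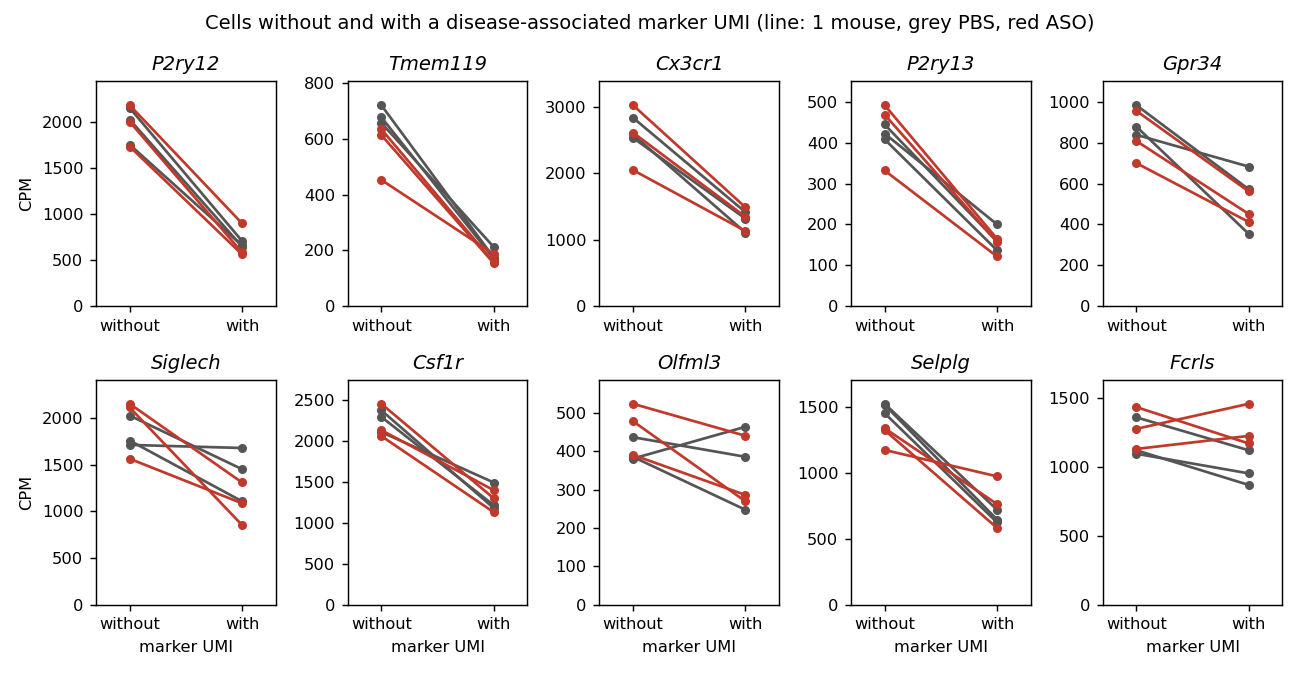
CPM of each homeostatic gene in cells without and with a UMI of a disease-associated marker (Cst7, Lpl, Itgax, Spp1, Gpnmb), 1 line per mouse (grey PBS, red ASO). Lines for Tmem119, P2ry12 and P2ry13 fall steeply in every mouse, whereas lines for Fcrls and Olfml3 cross.

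The level over cells with more marker UMIs fell stepwise for some members and not for others. In cells with 0, 1, 2 to 4, and 5 or more marker UMIs (1034, 98, 190 and 180 cells), mean Cx3cr1 over mice was 2609, 1910, 1312 and 1075 CPM, and P2ry13 was 428, 261, 162 and 105 CPM. P2ry12 was 1974, 964, 573 and 604 CPM, so it was no lower in the last group than in the one before. Siglech was 1886, 1352, 1194 and 1238 CPM. Fcrls was 1237, 875, 1010 and 1338 CPM, highest in cells with the most marker UMIs. The smallest mouse held 8 cells with 1 marker UMI and 9 cells with 2 to 4, so these means are given without a test, and median depth rose over the groups from 905 to 1390 UMIs.

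**Figure D4:**
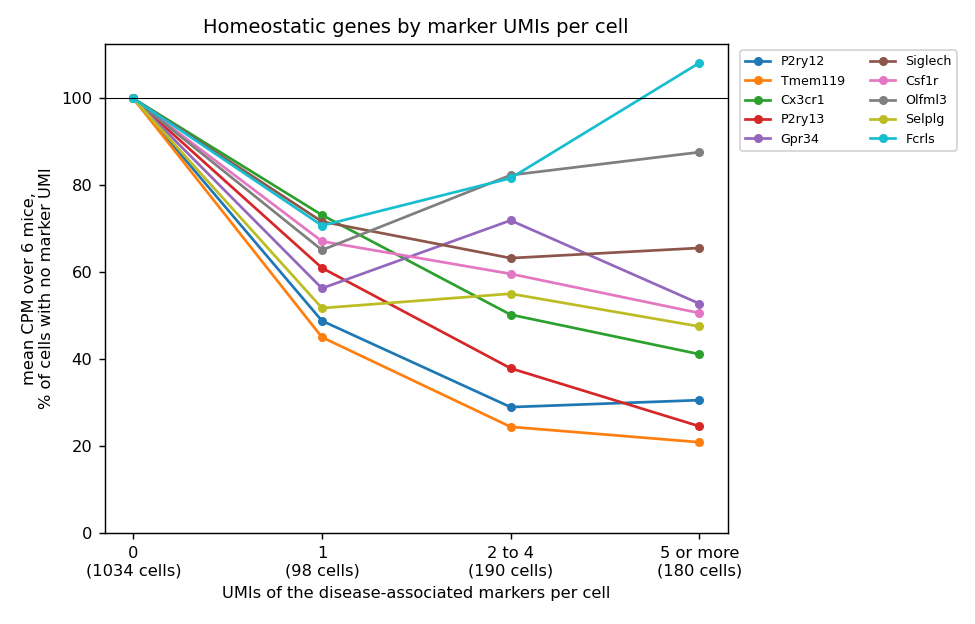
Mean CPM over 6 mice of each homeostatic gene by the number of disease-associated marker UMIs in a cell, as a percentage of its level in cells with none. Tmem119 drops to 20.9%, P2ry13 to 24.6% and P2ry12 to 30.6% in cells with 5 or more, while Olfml3 stays at 87.6% and Fcrls at 108%.

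Other genes of the homeostatic programme were lower too, with exceptions. Of 38 listed genes tested 23 passed lower and 6 passed higher, against 13.8% and 16.8% of the 3556 genes tested. The reduced ones included the lens crystallin gene Crybb1 (-3.26), Ecscr (-2.59), Upk1b (-1.82), Slc2a5 (-1.44), the microglial transcription factor Sall1 (-1.16), the phagocytic receptor Mertk (-0.91), the TGF-beta receptor Tgfbr1 (-0.88) and the ectonucleotidase Entpd1 (-0.82). Those that passed higher were Serpine2 (1.42), Trem2 (1.27), Ctss (0.58), Irf8 (0.53), C1qa (0.37) and C1qb (0.36). Trem2 is also on the disease-associated list, and C1qa, C1qb and Ctss are general microglia markers. All 18 tested disease-associated genes outside the splitting markers passed higher, from Timp2 (0.96) to Apoe (3.30), against the same 16.8% of genes. The cells were split on markers from that list, so this is no separate result. Immediate early genes gave 10 of 19 passing lower, among them Klf2 (-1.70), Jun (-0.75) and Egr1 (-0.64), and their part in the members' difference was not tested.

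Of 3 ligand genes tested 1 passed higher and 1 lower, and of 9 signalling genes 2 passed higher and 1 lower. Over the 3556 genes tested, 16.8% passed higher and 13.8% lower. Csf1 was higher in cells with a marker (2.16), and Nrros was lower (-0.65). The adaptor Tyrobp (1.84) and Trem2 (1.27) were higher, and the phosphatase gene Inpp5d was lower (-0.87). Csf1, Tyrobp and Trem2 are also on the disease-associated list that gave the splitting markers, so their higher levels are no separate result. Of 6 purine genes tested Entpd1 (-0.82) and the adenosine receptor Adora3 (-0.82) passed lower and P2rx4 (0.69) passed higher, against the same shares of genes. Whether lists this short differ from those shares was not tested.

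The difference by marker was not shown to depend on treatment. In a fit with a term for the difference of marker effects between ASO and PBS mice, 0 of 10 members passed, 0 had an unadjusted p under 0.05, and 1 of 3556 genes passed. Siglech had the smallest unadjusted p (0.0514, log2 difference -0.40, edgeR adjusted p = 0.883). The lowest and highest differences over members were -0.40 and, for Selplg, 0.40.

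A disease-associated marker UMI was seen in 29.6% of class cells (median 986 UMIs), 2.08% of Astrocyte cells (1095 UMIs), 1.03% of Oligodendrocyte cells (1037 UMIs) and 4.10% of Neuron_Dentate cells (1195 UMIs), so the share in the class exceeded that in deeper cells of classes that should lack the state.

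The class also holds other macrophages, as its label says. Cells with a UMI of any of 9 markers of border macrophages (Mrc1, Pf4, Cbr2, F13a1, Ms4a7, Lyve1, Cd163, Stab1, Dab2) numbered 350 of 1852 (18.9%). Such a UMI was also seen in 15.8% of Endothelial, 4.37% of Astrocyte, 3.83% of Neuron_Dentate and 1.8% of Oligodendrocyte cells. In these cells 0 of 10 members passed (edgeR; 5 had an unadjusted p under 0.05, as 10.1% of genes had, and DESeq2 gave 0, with 0 unadjusted), although 9 were fitted lower (49.4% of genes were), from -0.27 for Siglech to 0.01 for Fcrls; 0.51% of 3529 genes passed lower. Stab1 and Dab2 were seen in 11.2% and 5.62% of class cells and the other 7 markers in 0.756% to 3.46% each.

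The outcome changed with the markers and the filter. With no filter on low counts 6 members passed lower (0.714% of genes), with markers read at 500 UMIs 4 (1.37%), and with markers and sums at 500 UMIs 1 (1.57%). With Stab1 and Dab2 left out, a choice made after the data were seen, 122 cells remained as marked (10 to 33 per mouse) and all 10 members were lower and passed, against 6.67% of 3716 genes. Selplg then read 247 ± 110 CPM with and 1178 ± 88.5 CPM without a marker (SD, n = 6 mice), a log2 fold change of -2.32 (SE 0.25). Siglech read 460 ± 184 and 1696 ± 158 CPM (-2.02), and Tmem119 143 ± 218 and 481 ± 85.4 CPM (-1.88). Csf1r read 1248 ± 194 and 1924 ± 158 CPM (-0.86), and Fcrls 965 ± 405 and 1220 ± 121 CPM (-0.62, lower in 3 of 6 mice by CPM). With at least 2 UMIs of the 9 markers in a cell (110 cells), 9 members passed lower, Fcrls being the exception at -0.34, against 4.9% of 3711 genes. For all members together, the 7-marker cells held 5519 ± 783 CPM and the rest 11679 ± 865 CPM, so the 10 genes were reduced but not absent in them.

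**Figure D5:**
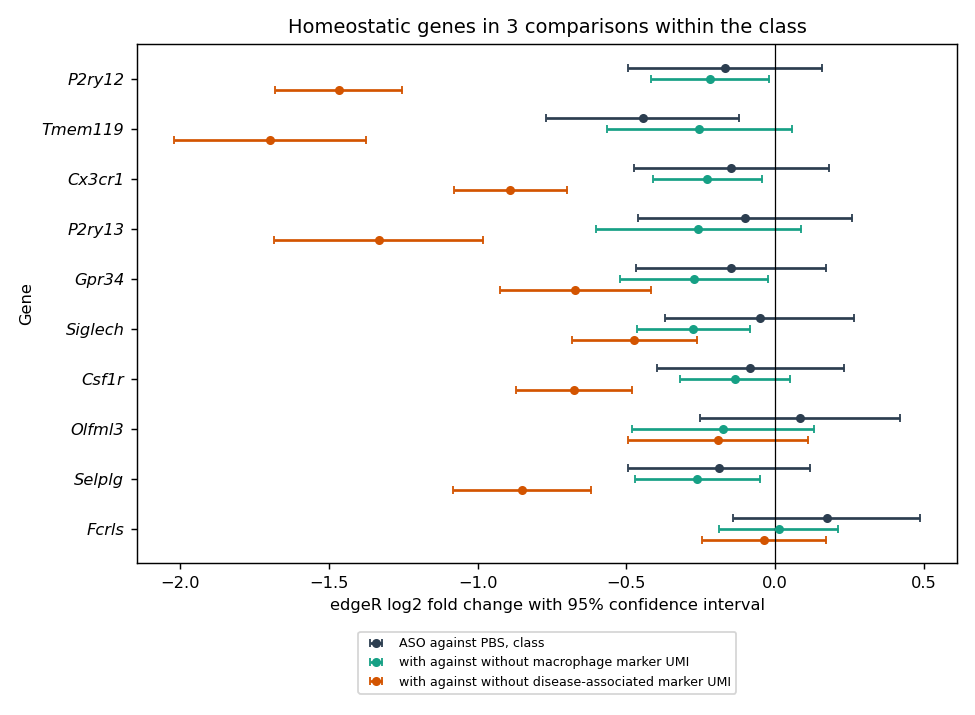
edgeR log2 fold change with its 95% confidence interval for each homeostatic gene in 3 comparisons: ASO against PBS mice, cells with against without a UMI of any of 9 macrophage markers, and cells with against without a disease-associated marker UMI. Of the 3 comparisons as shown, only the disease-associated one has members past the adjusted threshold, 8 of 10, all lower. There 13.8% of 3556 genes passed lower. Members also passed in the macrophage comparison under other marker choices, which are not drawn.

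The number of different members seen in a cell was also compared. After thinning, cells with a disease-associated marker held a mean of 2.81 members and those without 4.49, cells with any of the 9 macrophage markers 3.39 and those without 3.97. In the thinned class as a whole the mean was 3.86, and per mouse it lay between 3.51 (ASO mouse 3) and 4.09 (ASO mouse 2). Among class cells without a macrophage marker, ASO mouse 3 had the second highest share of disease-marker cells, at 36.8%. ASO mouse 1, with the highest at 40.8%, held a mean of 3.76 members over its class cells.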

How the data were processed

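Single-cell counts from 3 PBS and 3 ASO mice were analysed. The deposited table gives UMI counts as whole numbers, 1 row per gene and 1 column per cell, not normalized, and names each cell's class in its column header. The submitters' processing notes name bcl2fastq, STAR 2.5.0c, mm10 and GRCm38. Sources used here do not state the counting program, annotation or strand setting. Mouse numbers follow sample order and pair no mice. The members and all lists were chosen with earlier results of these data known.

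Doublets were called per mouse with Scrublet (scanpy 1.11.5) and removed; a limit of 15% mitochondrial UMIs removed no further cell. The remaining cells held 569 to 1999 UMIs. Counts were summed per mouse over the class, or over cells with and without a marker UMI, and tested in R 4.3.3 by the quasi-likelihood test of edgeR 4.0.16 (TMM scaling, filterByExpr, two-sided, Benjamini-Hochberg over all genes tested, threshold 0.05), with mouse as a block for splits within mice. Genes used to split cells left the count of genes tested. CPM without "normalised" are per 1000000 of all UMIs of the cells named. All members are named; from each list, genes past the threshold and up to 4 with the largest values could be named, and not all were; some items are not reported here. Tests were tried on simulated counts first. Alternatives were DESeq2 1.42.0, its size factors, limma 3.58.1 voom, robust estimation, no filter on low counts, other cell and marker choices, thinning, and each mouse left out. CPM limits for a count of 0 use 3 UMIs and cover counting error only.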

Additional observations from a re-analysis of the deposited data

Results flagged for a closer look

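In 3 places a member had more than 3 UMIs outside the microglia class, in a class of at least 100 cells, and a level, relative to its own in the microglia class, over 5 times the median of the 10 members there. Cx3cr1 read 251 CPM in Ependyma (59 UMIs; a count of 0 allows up to 12.8 CPM). Olfml3 read 63.4 CPM in Fibroblast-Like (8 UMIs, limit 23.8 CPM). Olfml3 also read 5.67 CPM in Polydendrocyte (6 UMIs, limit 2.84 CPM), 1.46% of its level in the microglia class.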

How the results depend on the processing

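In cells with against without a disease-associated marker, 8 members passed in all 14 alternatives (2.76% to 15.6% of genes passed lower); Fcrls turned to 0.025 with at least 2 marker UMIs and 0.028 with markers read at 500 UMIs. For ASO against PBS, 0 members passed in 18 alternatives, and Tmem119 ranged from -0.58 to -0.34 (adjusted p 0.372 to 1). Genes called there, 2 as reported, numbered 9 with no filter, 4 with robust estimation and 1 with cells chosen by non-member genes. They numbered 0 without oligodendrocyte-marker cells and 1 with a term for the mouse pairs formed by mitochondrial ratio. With each mouse left out they ranged from 0 to 8. Leaving out PBS mice 1, 2 and 3 gave 1, 7 and 6, and leaving out ASO mice 1 and 2 gave 0 and 8. Small fitted values changed sign: without disease-marker cells P2ry13 was at 0.027 and Siglech at 0.088, and without oligodendrocyte-marker cells Csf1r was at 0.031. With each mouse left out, P2ry13 ranged from -0.218 to 0.0321 (0.00096 without PBS mouse 3), Siglech from -0.119 to 0.0503 (0.0023 without PBS mouse 2) and Olfml3 from -0.051 to 0.210, the sign turning for each without ASO mouse 3. For macrophage markers, members called rose from 0 to 6 with no filter, 9 with at least 2 UMIs, 4 with markers read at 500 UMIs, 1 with markers and sums at 500 UMIs and 10 without Stab1 and Dab2, while Fcrls turned to -0.21, -0.34, -0.18, -0.31 and -0.62, and ranged from -0.0144 (without PBS mouse 1) to 0.0698 with each mouse left out. Beyond which cells and genes each alternative used, the cause was not tested. The share of member UMIs in the class moved by less than its spread over mice in every alternative tried. A term for the mouse pairs formed by mitochondrial ratio, which no label names, changed no call on a member. That term is the only fit by pairs for ASO against PBS, since the labels pair no mice. Depth limits detection of P2ry13, Olfml3 and Tmem119 in single cells, and 3 mice a group limit the ASO comparison.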
